A study of Homo sapiens with 9 samples.

Results

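The comparison described here sets the *EPCART*-del clone del-4 against the WT clone, and its members are 6 of the 9 RNA-seq libraries of the series, 3 from each clone. Both are clones of LNCaP, an androgen-sensitive prostate cancer cell line. In del-4 the promoter and exons 1 and 2 of *EPCART*, a prostate cancer-associated long noncoding RNA gene, were removed with CRISPR-Cas9, and the WT clone keeps them. Cultures of both clones were grown without further treatment for 48 h in RPMI 1640 with 10% fetal bovine serum. Polyadenylated RNA was sequenced, and the values are normalized counts, which are read counts per protein-coding gene divided by a size factor of the library. *EPCART* is not among the protein-coding genes of the table, so the targeted gene itself was not analysed here. Each genotype is represented by 1 clone, so that the effect of the deletion and other differences between the clones cannot be told apart. The adjusted p-values measure the spread between the 3 cultures of a clone.

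LNCaP cells are luminal prostate epithelial cells whose growth responds to androgens. They carry the junction proteins and ion transporters of an epithelium, respond to growth factors such as IGF and BMP ligands, and can take on neuronal features when androgen signalling is lost. A cloned line descends from a single cell of the parental population and need not represent all of it.

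The 6 libraries held between 111508198 and 118877134 reads on genes, and the 100 genes with most reads took between 16.0% and 18.4% of them. Of 19984 genes, 18425 had a read in at least 1 of the 6 libraries. The summed normalized count of 12 luminal and LNCaP markers ranged from 422280 to 429140 over the del-4 libraries and from 425500 to 446520 over those of WT. Of the markers of other cell types, *INSM1* (neuroendocrine), *CDH5* (endothelium) and *CD3E* (leukocytes) were at 0 in all 6 libraries, while *COL1A1* (stroma, 937 to 1358) and *VWF* (endothelium, 288 to 613) were expressed in each. Libraries of each clone thus expressed the luminal and LNCaP markers, at summed levels that overlapped between the clones.

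In limma with Benjamini-Hochberg adjustment over the 17401 genes tested, 3565 genes (20.5%) had risen and 3517 (20.2%) had fallen in del-4 relative to WT at an adjusted p under 0.05. At a change of more than 2-fold as well, 329 genes (1.89%) were higher and 512 (2.94%) lower. Rescaling the libraries to the same total of reads gave 2364 higher and 4932 lower genes (13.6% and 28.3%), and quantile normalization gave 408 genes over 2-fold higher and 439 over 2-fold lower. The libraries of the clones did not overlap in 8621 genes (49.5%). Among the 10392 well-expressed genes, defined by a mean normalized count no lower than 1000, large changes were rare. There 53 genes (0.51%) were over 2-fold higher and 52 (0.5%) over 2-fold lower. The median standard error of the log2 fold change (log2FC) was 0.046 for well-expressed genes and 0.99 for genes with a mean under 10, so the former carry most of the account that follows.

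**Figure D1:**
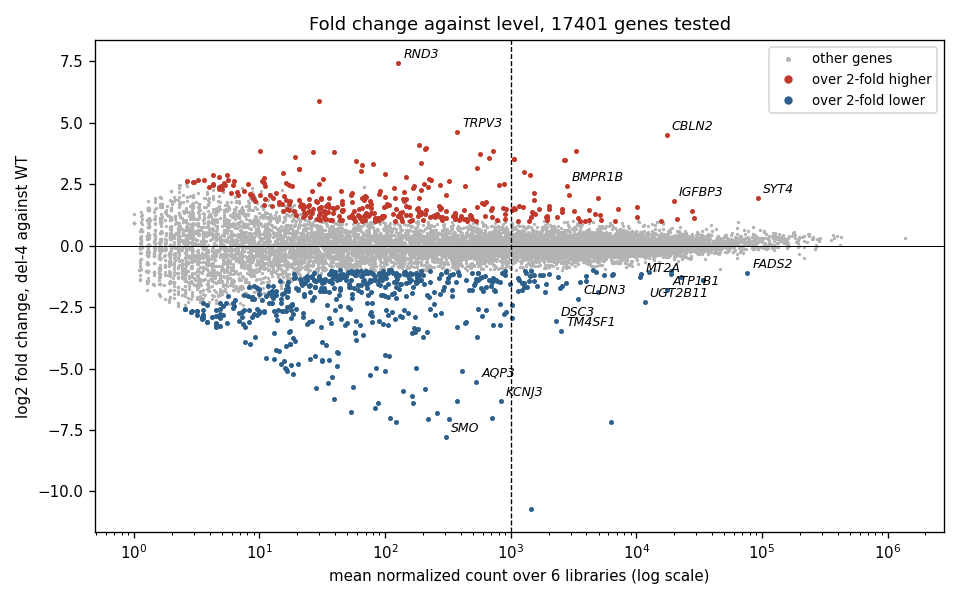
Log2 fold change of del-4 against WT (y axis) plotted against the mean normalized count over the 6 libraries (x axis, log scale), 1 point for each of the 17401 genes tested. Red and blue points are genes over 2-fold higher and over 2-fold lower at an adjusted p under 0.05, and the dashed line marks a mean of 1000, to the right of which 53 genes are red and 52 blue.

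The well-expressed gene with the largest rise was *CBLN2* (ENSG00000141668.10, chromosome 18, positions 72536680 to 72638521 in GRCh38), which encodes a secreted cerebellin that organizes synapses. Its normalized counts were 34013, 31810 and 34230 in del-4 and 1395, 1483 and 1485 in WT. The del-4 libraries all lay far above the WT libraries, at a ratio of means of 22.9 (log2FC = 4.52, SE 0.042, adjusted p = 9.3e-22, limma). Another neuronal gene, *SYT4*, which encodes a synaptotagmin of secretory vesicles, stood at 150896, 142547 and 145071 in del-4 libraries and at 40162, 37769 and 37156 in WT libraries (log2FC = 1.93, SE 0.041, adjusted p = 2.5e-16, limma). *SYT4* was the single gene among the 200 with most reads that was over 2-fold higher. The summed count of 5 neuroendocrine markers ranged from 108 to 172 over the del-4 libraries and from 153 to 247 over those of WT, with *INSM1* at 0.

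Several further rises among well-expressed genes fell on adhesion and scaffold proteins. The protocadherin *PCDH20* had normalized counts of 5182, 4854 and 4762 in del-4 and 448, 424 and 428 in WT (log2FC = 3.51, SE 0.064, adjusted p = 4.7e-17, limma). Its reads are shared with the overlapping gene ENSG00000197991, so the signal cannot be assigned to either gene alone. *TENM1*, a teneurin that spans the membrane and binds partners on other cells, had 2401, 2461 and 1945 in del-4 and 238, 329 and 276 in WT (log2FC = 3.01, SE 0.12, adjusted p = 9.1e-13, limma). The scaffold gene *DLG2*, whose product anchors receptors at the postsynaptic membrane, had 2765, 2434 and 2361 in del-4 and 559.5, 605 and 548 in WT (log2FC = 2.14, SE 0.077, adjusted p = 4.5e-13, limma). In each of these genes the lowest del-4 library was several times the highest WT library. Heparan sulfate is carried at the cell surface by glypicans, and the glypican gene *GPC6* rose from a range of 1100 to 1159 in WT to between 4505 and 5084 in del-4 (log2FC = 2.08, SE 0.057, adjusted p = 8.4e-15, limma).

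Receptors and regulators of growth factor signalling were also among these genes. *BMPR1B*, a type I receptor for bone morphogenetic proteins, had normalized counts of 4736, 4735 and 4636 in del-4 and 847, 901 and 831 in WT (log2FC = 2.45, SE 0.055, adjusted p = 6.0e-16, limma). *SPRY1*, a Sprouty protein that restrains signalling by receptor tyrosine kinases, had 8246, 7436 and 8001 in del-4 and 1914, 1954 and 2259 in WT (log2FC = 1.95, SE 0.059, adjusted p = 2.9e-14, limma). Both genes were tightly clustered within a clone and well separated between clones. The metabolic gene *ECHDC1*, which encodes an enzyme that removes ethylmalonyl-CoA, had 2673, 2333 and 2448 in del-4 and 298, 353 and 373 in WT (log2FC = 2.86, SE 0.093, adjusted p = 9.5e-14, limma).

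The germ cell genes of the *VCX* family on the X chromosome formed a group of their own. *VCX* had normalized counts of 6463, 5928 and 6129 in del-4 and 390.4, 399.6 and 485 in WT (log2FC = 3.86, SE 0.077, adjusted p = 1.0e-16, limma). Its relatives *VCX2*, *VCX3A* and *VCX3B* rose by log2FC values of 3.87, 3.72 and 3.57, and the related *VCY* and *VCY1B* rose as well. These genes are near-identical copies, so how reads were divided among them is uncertain and the genes are not independent of each other.

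**Figure D2:**
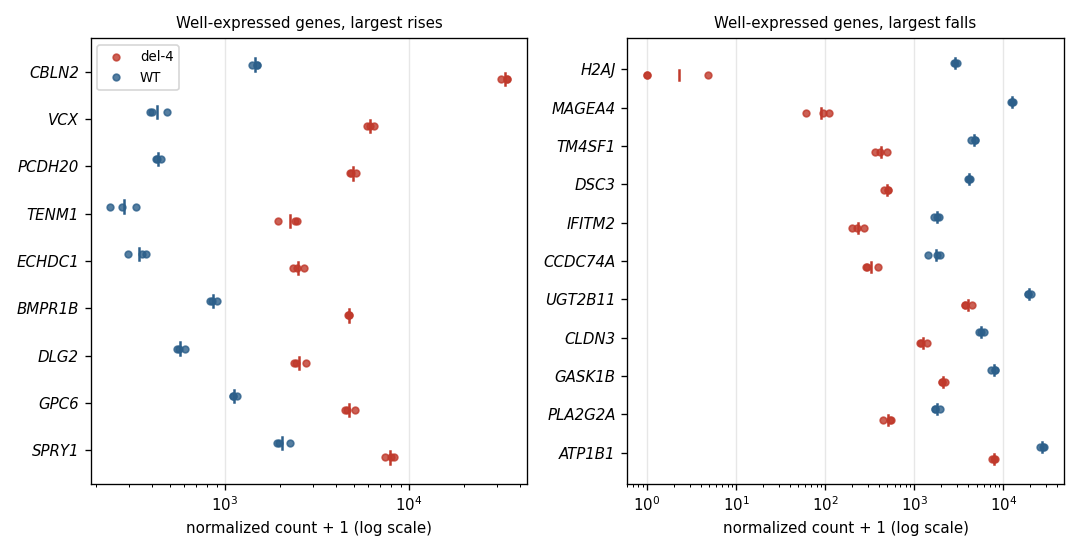
Normalized counts plus 1 (x axis, log scale) of the well-expressed genes with the largest rises (left) and falls (right), with 1 point per library and a vertical tick at the mean of 3 libraries. Genes were drawn only if their del-4 and WT libraries did not overlap. They run from *CBLN2* with a log2FC of 4.52 to *ATP1B1* with -1.81.

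The falls among well-expressed genes chosen by size included the following genes of the cell surface and its junctions. *TM4SF1*, a surface protein with 4 membrane spans, had normalized counts of 410.1, 490.0 and 359.6 in del-4 and 4311, 4813 and 4791 in WT (log2FC = -3.47, SE 0.091, adjusted p = 5.0e-15, limma). *DSC3*, a desmosomal cadherin, had 453, 500.0 and 512 in del-4 and 4201, 3990 and 4072 in WT (log2FC = -3.06, SE 0.067, adjusted p = 4.1e-16, limma). The tight junction gene *CLDN3* had 1371, 1158 and 1201 in del-4 and 5594, 6039 and 5343 in WT (log2FC = -2.19, SE 0.064, adjusted p = 2.1e-14, limma). In these 3 genes the ratio of means was over 4 in favour of WT, and a lack of overlap was a condition of their choice. The 6 tested neighbours of *DSC3* within 500 kb, which are the other desmocollin and desmoglein genes, had positive log2FC values from 0.55 to 1.45 (median 0.83). *ATP1B1*, the beta subunit of the sodium and potassium pump, is among the better expressed of these genes and had 7832, 7549 and 8109 in del-4 and 27946, 25872 and 28594 in WT (log2FC = -1.81, SE 0.041, adjusted p = 6.2e-16, limma).

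*UGT2B11* belongs to a family of enzymes that attach glucuronic acid to steroids and other lipids. It had normalized counts of 3720, 4472 and 3736 in del-4 and 20246, 18959 and 18786 in WT (log2FC = -2.29, SE 0.057, adjusted p = 2.3e-15, limma). The other members on chromosome 4 that passed the 2-fold limit fell less, with log2FC values of -1.56 for *UGT2B10*, -1.48 for *UGT2B4*, -1.15 for *UGT2B28* and -1.0 for *UGT2B7*, and reads of these similar genes may be split among them. *PLA2G2A*, a secreted phospholipase, had 526, 444 and 544 in del-4 and 1919, 1728 and 1727 in WT (log2FC = -1.83, SE 0.089, adjusted p = 2.2e-11, limma). Polyunsaturated fatty acids are made with the desaturases *FADS2* and *FADS1*. *FADS2* had 46757, 49947 and 48066 in del-4 and 108257, 103540 and 102617 in WT (log2FC = -1.12, SE 0.039, adjusted p = 3.2e-13, limma), and the adjoining *FADS1* had 11588, 11960 and 11805 in del-4 and 27175, 26070 and 25670 in WT (log2FC = -1.16, SE 0.035, adjusted p = 3.1e-14, limma). Their annotated spans overlap, and the sources used here do not state whether counting used strand.

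The remaining well-expressed genes chosen by the size of their fall were *H2AJ*, *MAGEA4*, *IFITM2*, *CCDC74A*, *GASK1B* and the Y-linked *PCDH11Y*. *H2AJ*, a histone H2A variant, was listed at 3.84, 0 and 0 in del-4, where no library held more than 4 reads, and at 2851, 3013 and 2765 in WT. Its fitted log2FC of -10.73 became -11.49 without del-4 replicate 1 (limma, adjusted p = 3.8e-10) and -8.90 with a pseudocount of 5. The cancer-testis gene *MAGEA4* had 59.5, 94.6 and 108 in del-4 and 12546, 12240 and 12842 in WT (log2FC = -7.19), with copies in the same family that may share reads. *IFITM2*, an interferon-induced membrane protein, had 199.8, 229 and 268 in del-4 and 1820, 1912 and 1661 in WT (log2FC = -2.95, adjusted p = 6.6e-13, limma), and it overlaps the annotated gene ENSG00000288681, which fell as well (log2FC = -1.86). *CCDC74A* and *GASK1B* fell by log2FC values of -2.42 and -1.88.

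Among the 200 genes with most reads, changes were small. There 130 genes were higher and 16 lower at an adjusted p under 0.05, with 116 higher and 36 lower after rescaling to the same total and 73 higher and 63 lower after quantile normalization. *FADS2* was the single gene of the 200 over 2-fold lower. *HMGN2*, a nucleosome-binding protein, rose from 57903, 56351 and 55350 in WT to 85438, 85820 and 89973 in del-4 (log2FC = 0.62, adjusted p = 4.6e-10, limma). Its 26 tested neighbours within 500 kb on chromosome 1 had log2FC values from -2.19 to 1.15 (median 0.28). *AIDA* rose by a log2FC of 0.76 and *RPS10*, a protein of the small ribosomal subunit, by 0.64. *RPS10* shares its reads with the readthrough gene *RPS10-NUDT3* (log2FC = 0.62), and *AIDA* overlaps a neighbouring gene. *HSP90AA1*, the inducible cytosolic HSP90 chaperone, had 181255, 183222 and 175579 in del-4 and 261777, 247845 and 248446 in WT (log2FC = -0.49, adjusted p = 1.5e-07, limma). Smaller falls were found for *RPL13* (log2FC = -0.32), a protein of the large ribosomal subunit, for *H3-3A* (-0.30), which encodes histone H3.3, and for *LIMCH1* (-0.22), which binds non-muscle myosin. *RPL13* lies on chromosome 16, where the median log2FC of 790 tested genes was -0.34. Its 25 tested neighbours within 500 kb all fell, with log2FC values from -1.65 to -0.18 (median -0.53). The part of this shift in the fall of *RPL13* was not tested.

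A second kind of difference concerned genes at or near 0 in 1 of the clones. With at most 3 reads in every library of 1 clone and a mean of at least 50 in the other, 2 genes were expressed in del-4 alone of the pair and 6 in WT alone. *RND3* (ENSG00000115963.14, chromosome 2, positions 150468195 to 150539011), an atypical small GTPase that acts on the actin cytoskeleton, had 319, 259 and 187 in del-4 and 0, 0 and 1.89 in WT. Against a floor of 3 reads per library the difference was an increase of at least 88.7-fold (log2FC = 7.46, SE 0.50, adjusted p = 1.9e-09, limma). The transcription factor gene *TBX2* was the other, with an increase of at least 20.6-fold. Its WT libraries were all at 0, and those of del-4 held 69.1, 50.8 and 57.3.

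The 6 genes lost in del-4 encode proteins of different kinds. *CCDC122* (ENSG00000151773.13, chromosome 13, positions 43823909 to 43879740) had 0, 1.99 and 2.01 in del-4 and 201, 169.9 and 151 in WT, which is at least 58.7-fold lower in the deletion clone (log2FC = -6.38, adjusted p = 1.3e-08, limma). *ITPRIPL2* was at least 37.0-fold lower, *FNDC4*, a secreted fibronectin domain protein, at least 36.4-fold lower and *PRELP*, a small leucine-rich proteoglycan of the matrix, at least 26.5-fold lower. *LHX6*, a LIM homeobox transcription factor, was at least 23.3-fold lower and *NHLRC1*, a ubiquitin ligase also known as malin, at least 19.0-fold lower. *FNDC4*, *PRELP* and *NHLRC1* were at 0 in all 3 del-4 libraries, which allows up to 3 reads in each. The WT libraries held between 41.5 normalized counts, in *NHLRC1*, and 201, in *CCDC122*. Counting error alone is covered by these floors.

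Genes above that limit of 3 reads in del-4 also showed large falls. *SMO* (ENSG00000128602.11, chromosome 7, positions 129188633 to 129213545) encodes Smoothened, the membrane protein through which Hedgehog ligands act on GLI transcription factors. Its normalized counts were 0, 1.99 and 6.03 in del-4 and 570.2, 618 and 647 in WT (log2FC = -7.79, SE 0.50, adjusted p = 9.0e-10, limma). None of the del-4 libraries held more than 6 reads, against 570 or more normalized counts in WT. The fitted value was -7.06 without del-4 replicate 1, and leaving out del-4 replicate 3 gave -8.47 (limma, adjusted p = 3.3e-07 and 3.8e-06). *AQP3* (ENSG00000165272.16, chromosome 9, positions 33441156 to 33447596), a channel for water and glycerol, had 23.0, 28.9 and 15.1 in del-4 and 1048, 1015 and 1060 in WT (log2FC = -5.53, SE 0.22, adjusted p = 1.2e-12, limma).

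The sequences around a RefSeq start are shown for 4 of these genes, as examples of genes with very low counts in 1 clone. Other such genes, among them *TBX2*, *FNDC4* and *PRELP*, are not shown. CG dinucleotides are the sites of DNA methylation, which was not measured here. The sequences come from RefSeq on GRCh38.p14, from 250 bases before to 50 bases after the first listed start, 5′ to 3′, with CG in capitals. For *RND3* this start lies within the gene span given above, not at its 5′ end.
SMO (chr7:129188383-129188682, plus strand): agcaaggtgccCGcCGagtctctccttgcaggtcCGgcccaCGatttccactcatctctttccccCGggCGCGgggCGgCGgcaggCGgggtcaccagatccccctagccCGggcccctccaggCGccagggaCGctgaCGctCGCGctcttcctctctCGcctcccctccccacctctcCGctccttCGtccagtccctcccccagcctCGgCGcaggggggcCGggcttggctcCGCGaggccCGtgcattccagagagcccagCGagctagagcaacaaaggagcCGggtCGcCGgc
AQP3 (chr9:33447544-33447843, minus strand): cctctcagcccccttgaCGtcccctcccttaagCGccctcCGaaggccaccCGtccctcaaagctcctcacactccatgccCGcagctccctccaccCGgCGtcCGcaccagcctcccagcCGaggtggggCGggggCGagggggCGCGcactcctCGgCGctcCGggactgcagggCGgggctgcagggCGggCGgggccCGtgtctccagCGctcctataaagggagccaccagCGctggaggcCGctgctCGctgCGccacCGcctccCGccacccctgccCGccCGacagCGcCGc
CCDC122 (chr13:43879691-43879990, minus strand): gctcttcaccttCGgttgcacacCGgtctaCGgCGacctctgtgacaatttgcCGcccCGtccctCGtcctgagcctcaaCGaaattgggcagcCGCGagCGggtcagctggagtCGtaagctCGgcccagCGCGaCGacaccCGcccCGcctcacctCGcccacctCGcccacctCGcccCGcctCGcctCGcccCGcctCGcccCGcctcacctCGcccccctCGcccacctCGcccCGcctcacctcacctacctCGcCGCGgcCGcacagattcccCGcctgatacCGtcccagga
RND3 (chr2:150487646-150487945, minus strand): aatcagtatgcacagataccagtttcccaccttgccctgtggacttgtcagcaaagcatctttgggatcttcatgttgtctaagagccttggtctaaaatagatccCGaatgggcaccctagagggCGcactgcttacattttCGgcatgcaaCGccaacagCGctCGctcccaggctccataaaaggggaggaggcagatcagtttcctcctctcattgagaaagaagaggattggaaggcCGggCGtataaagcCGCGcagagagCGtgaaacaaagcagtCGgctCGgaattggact

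The CG dinucleotide, which reads the same on both strands, occurred 29 times in the *SMO* sequence, 31 times in *AQP3*, 37 times in *CCDC122* and 13 times in *RND3*. Over the 15300 promoters of this length that matched genes of the table, the median was 22. At least as many were found in 33.2% of promoters for *SMO*, 28.2% for *AQP3*, 15.1% for *CCDC122* and 69.3% for *RND3*. These counts describe the sequences alone, and other genes with large falls held both fewer and more. There were 1 in *PRELP*, 10 in *MAGEA4*, 15 in *KCNJ3* and 22 in *H2AJ*, but 31 in *LHX6* and *PSTPIP2* and 35 in *FNDC4*.

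*SMO* stands at the head of the Hedgehog response, so the other genes of that pathway were examined, a list drawn up after the fall of *SMO* was known. Of its 15 tested members, 3 were higher and 1 lower, where 20.5% and 20.2% of all genes tested were. The lower one was *SMO* itself, for which the list was drawn up. The receptor *PTCH1*, which is also a transcriptional target of the pathway, had 3279, 2801 and 3176 in del-4 and 2544, 2588 and 2588 in WT (log2FC = 0.26, adjusted p = 0.0013, limma). The co-receptor *CDON* (log2FC = 0.46) and the GLI inhibitor *SUFU* (log2FC = 0.22) were slightly higher. The effector *GLI1* had low counts of 41.3, 24.9 and 45.2 in del-4 and 29.96, 50.2 and 71.6 in WT (log2FC = -0.40, adjusted p = 0.44, limma), which overlapped between the clones, and *GLI3* had 1195, 1203 and 1141 in del-4 and 1148, 1098 and 1231 in WT (log2FC = 0.03, adjusted p = 0.81, limma).

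Of 80 tested potassium, calcium and TRP channel genes, 14 were higher and 18 lower (17.5% and 22.5%), near the 20.5% and 20.2% of all genes tested, with a median log2FC of -0.03 beside -0.0028 over all genes tested. *KCNJ3* encodes a G protein-gated inward rectifier potassium channel, and it had 17.3, 13.9 and 32.1 in del-4 and 1763, 1484 and 1699 in WT (log2FC = -6.30, SE 0.23, adjusted p = 5.9e-13, limma). *TRPV3*, a warmth-sensitive cation channel best known from skin, moved the other way, with 698, 745 and 723 in del-4 and 25.1, 29.0 and 30.2 in WT (log2FC = 4.64, SE 0.18, adjusted p = 1.4e-12, limma). Its overlapping neighbour *SPATA22* rose with it (log2FC = 3.98), and the reads of the pair cannot be separated. *TRPM8*, an androgen-responsive cold receptor of prostate epithelium, had 4921, 4627 and 4685 in del-4 and 2354, 2342 and 2340 in WT (log2FC = 1.02, adjusted p = 7.1e-12, limma). The well-expressed *KCNN2*, a calcium-activated potassium channel, rose by 0.72 and *KCNH8* by 1.07, while the calcium channel gene *CACNA1H* fell by 1.01 on the log2 scale. Of 8 aquaporin genes tested, a list also drawn up after the values were seen, *AQP3* and *AQP4* were lower and none was higher, beside 20.2% and 20.5% of all genes tested.

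Whether a gene of del-4 differs from the other deletion clone, del-56, was tested by fitting del-4 against del-56 directly. Del-56 carries the same kind of deletion and was compared with the same WT libraries. The 8 genes with the largest rises that differed from both clones were *HK3*, *TRPV3*, *CBLN2*, *BRINP1* and 4 *VCX* genes. *HK3*, a hexokinase best known from blood cells, had mean normalized counts of 352 ± 17.8 (SD, n = 3) for del-4, 2.15 ± 2.02 for del-56 and 20.1 ± 6.78 for WT. *CBLN2* had means of 33351, 2949 and 1455 in the same order. *BRINP1*, a gene of neurons, had 352, 15.1 and 33.2. For *HK3* and *BRINP1* the del-56 mean was therefore on the other side of WT.

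The 8 genes with the largest falls by the same rule were *SMO*, *C9orf64*, *KCNJ3*, *PSTPIP2*, *AQP3*, *AS3MT*, *CCDC74B* and *XKR6*. *KCNJ3* had means of 21.1, 1528 and 1649, again for del-4, del-56 and WT. *C9orf64*, whose product salvages the modified base queuine, had 3.34, 712 and 435. Its log2FC against WT of -7.06 was -6.20 without del-4 replicate 1 (limma, adjusted p = 1.3e-07). *PSTPIP2*, a membrane-bending protein that binds actin, had 5.86, 90.2 and 271, and its log2FC of -5.89 was -6.50 without del-4 replicate 1, and leaving out del-4 replicate 3 gave -4.80 (limma, adjusted p = 7.5e-05 and 4.3e-06). *AS3MT*, the arsenite methyltransferase, had 25.1, 305 and 301 and overlaps a readthrough gene. Against WT, del-56 was also lower in *AQP3* (log2FC = -1.87, adjusted p = 1.6e-09, limma), *PSTPIP2* (-1.61, adjusted p = 2.0e-05), *SMO* (-0.68, adjusted p = 0.00017) and *CCDC74B* (-0.29, adjusted p = 0.04). The direct differences are given in the closing section.

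**Figure D3:**
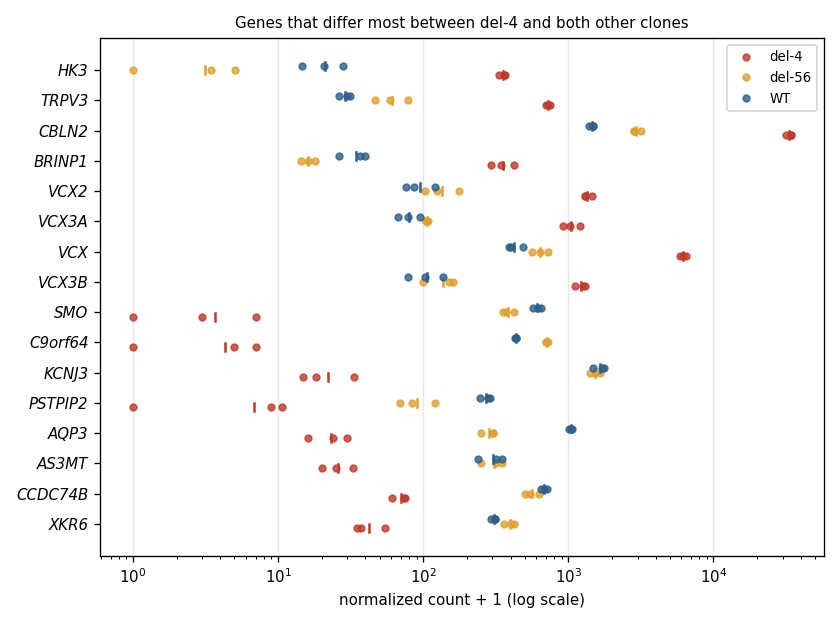
Normalized counts plus 1 (x axis, log scale) of the 16 genes that differed most between del-4 and both other clones, with 1 point per library, a tick at the mean of 3 libraries, and del-4 in red, del-56 in yellow and WT in blue. The del-4 points of *KCNJ3* lie between 13.9 and 32.1 before the 1 is added, away from the points of both other clones.

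Gene lists for signalling and function were then counted and set beside the 20.5% higher and 20.2% lower of all genes tested. Of the 10392 well-expressed genes, 2866 were higher and 2538 lower, larger shares in both directions than among all genes tested. Such genes were 51 of 62 members for fatty acid oxidation and peroxisomes and 44 of 50 for lysosomes. They were 13 of 60 for receptor tyrosine kinases. The part of expression level in the shares of the lists was not tested. The list with the highest share of rises was that of the TGF-beta and BMP pathway, with 23 of 50 tested members higher and 6 lower (46% and 12%) and a median log2FC of 0.19. After rescaling to the same total it held 18 higher and 7 lower members (36% and 14%), beside 13.6% and 28.3% of all genes. Among the receptors, *BMPR1B* led, and *TGFBR2*, the type II receptor for TGF-beta, had 99.9, 118 and 110.5 in del-4 and 15.5, 23.2 and 49.0 in WT (log2FC = 2.02, adjusted p = 0.00017, limma). Among the ligands *BMP7* had 119, 116 and 108 in del-4 and 19.3, 13.5 and 8.48 in WT (log2FC = 3.03, adjusted p = 1.5e-06, limma), whereas *INHBB*, which encodes the beta-B subunit of activins and inhibins, had 82.6, 75.7 and 106 in del-4 and 785, 726 and 805 in WT (log2FC = -3.13, adjusted p = 2.9e-11, limma). Ligand-binding proteins moved in both directions. *LTBP1*, which tethers latent TGF-beta in the matrix, had 822, 789 and 806 in del-4 and 255, 266 and 290.3 in WT (log2FC = 1.57, adjusted p = 2.2e-09, limma), the BMP antagonist *CHRD* rose by 1.93, and *FSTL1* fell from 297, 342 and 358 in WT to 33.6, 17.9 and 48.2 in del-4 (log2FC = -3.38, adjusted p = 3.7e-08, limma).

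The intracellular members of this pathway changed much less. *SMAD1*, *SMAD2*, *SMAD3*, *SMAD4* and *SMAD5*, which carry the signal to the nucleus, had log2FC values of 0.24, 0.19, 0.31, 0.10 and 0.19. The inhibitory *SMAD7* rose by 0.45 and *SMAD6* by 0.18. Target genes did not move as a unit, with *ID3* at 0.33 and *ID2* at -0.27. The pseudoreceptor *BAMBI*, which dampens TGF-beta signalling and is itself a target, had 1577, 1262 and 1448 in del-4 and 2339, 2084 and 2285 in WT (log2FC = -0.65, adjusted p = 1.7e-06, limma).

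Receptor tyrosine kinases and their ligands held 12 higher and 6 lower among 60 tested members, near the background for rises, with a median of 0.02. Over 2-fold, 6 members (10%) were called higher and none lower, beside 1.89% and 2.94% of all genes tested. *IGFBP3*, a binding protein that sequesters IGF, had 40764, 24212 and 28846 in del-4 and 8342, 8538 and 9221 in WT (log2FC = 1.81, SE 0.11, adjusted p = 6.0e-10, limma), with del-4 replicate 1 well above the other two. *IGF1R*, the receptor for IGF1, had 8734, 9800 and 8421 in del-4 and 3925, 4974 and 4579 in WT (log2FC = 1.00, adjusted p = 2.0e-09, limma). *IGFBP5* had 142, 203 and 187 in del-4 and 21.3, 27.0 and 18.9 in WT (log2FC = 2.93, adjusted p = 1.4e-07, limma). Of the FGF receptors *FGFR2* had 279, 319 and 241 in del-4 and 65.7, 48.3 and 49.0 in WT (log2FC = 2.35, adjusted p = 8.0e-08, limma), and the ERBB ligand gene *NRG3* rose by 1.84. Both lay at low levels in WT.

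Axon guidance genes, whose ligands and receptors also steer contacts between epithelial cells, had 22 higher and 10 lower members among 63 tested (34.9% and 15.9%), with a median of 0.08. Ephrin receptors divided. *EPHB2* had 2656, 2637 and 2833 in del-4 and 1218, 1202 and 1172 in WT (log2FC = 1.18, adjusted p = 2.5e-11, limma) and *EPHA6* had 10394, 9987 and 9950 in del-4 and 5448, 5044 and 5421 in WT (log2FC = 0.93, adjusted p = 5.2e-12, limma), whereas *EPHA3* had 3722, 3978 and 3903 in del-4 and 9117, 8621 and 8857 in WT (log2FC = -1.20, adjusted p = 2.4e-13, limma). *EPHA7* and *EPHA5* rose by 0.73 and 0.83, and the ligand gene *EFNB2* fell by 0.66 on the log2 scale. Of the semaphorin receptors *PLXND1* rose by 2.04 and *NRP1* fell from 13295, 12787 and 12580 to 7768, 7482 and 7925 (log2FC = -0.74, adjusted p = 3.9e-11, limma).

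**Figure D4:**
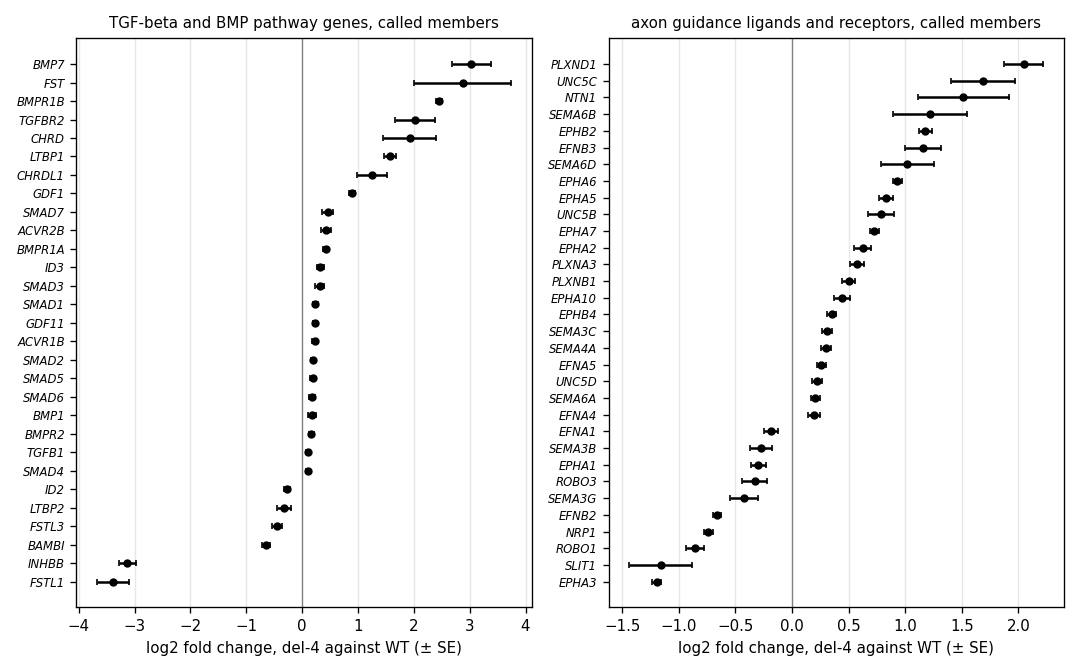
Log2 fold change of del-4 against WT (x axis) with its standard error (bars) for the called members of the TGF-beta and BMP list (left, 23 higher and 6 lower) and of the axon guidance list (right, 22 higher and 10 lower), 1 row per gene. Secreted proteins lie at both ends of the left panel, and the SMAD genes lie between 0.10 and 0.45.

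Synaptic adhesion and scaffold genes were listed after *CBLN2*, *TENM1* and *DLG2* had been seen. Of 45 tested members, 14 were higher and 9 lower, with a median of 0.01, beside 20.5% and 20.2% of all genes tested. Over 2-fold, 5 were called in each direction, beside 1.89% higher and 2.94% lower of all genes tested. The 5 higher ones include *CBLN2*, *TENM1* and *DLG2*, so their share was fixed in part by how the list was chosen. *NLGN4X*, a neuroligin, had 2923, 3125 and 2905 in del-4 and 1022, 1183 and 994 in WT (log2FC = 1.49, adjusted p = 1.1e-11, limma) and *FLRT2* rose by 2.70. *TENM4* had 51.9, 19.9 and 24.1 in del-4 and 321, 291 and 307 in WT (log2FC = -3.34, adjusted p = 5.2e-08, limma), opposite in direction to *TENM1*. *SLITRK6* and *SLITRK5* had log2FC values of -1.38 and -3.07. The list of neuroendocrine and neuronal vesicle genes had 5 higher and 1 lower among 23 tested members (21.7% and 4.35%). The share of rises was thus near the 20.5% of all genes tested. The lower one was *SYP* (log2FC = -0.60), whose libraries overlapped between the clones and which lost its call after quantile normalization.

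Wnt pathway genes had 16 higher and 6 lower among 53 tested members (30.2% and 11.3%), with a median of 0.11. After rescaling to the same total there were 13 higher and 10 lower (24.5% and 18.9%), beside 13.6% and 28.3% of all genes. *LGR4*, a receptor for R-spondins, had 2564, 2584 and 2786 in del-4 and 1558, 1440 and 1514 in WT (log2FC = 0.81, adjusted p = 3.9e-09, limma), and the ligand gene *RSPO4* had 109, 170.3 and 203 in del-4 and 32.9, 34.7 and 49.0 in WT (log2FC = 2.0, adjusted p = 1.5e-05, limma). The Frizzled receptor *FZD4* rose by 0.82, the transcription factor *TCF7L2* by 0.68 and *CTNNB1*, which encodes beta-catenin, by 0.25. The ubiquitin ligases *ZNRF3* and *RNF43*, which remove Frizzled from the membrane and are induced by the pathway, were slightly lower (log2FC = -0.22 and -0.21). Notch pathway genes were divided, with 8 higher and 7 lower among 34.

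**Figure D5:**
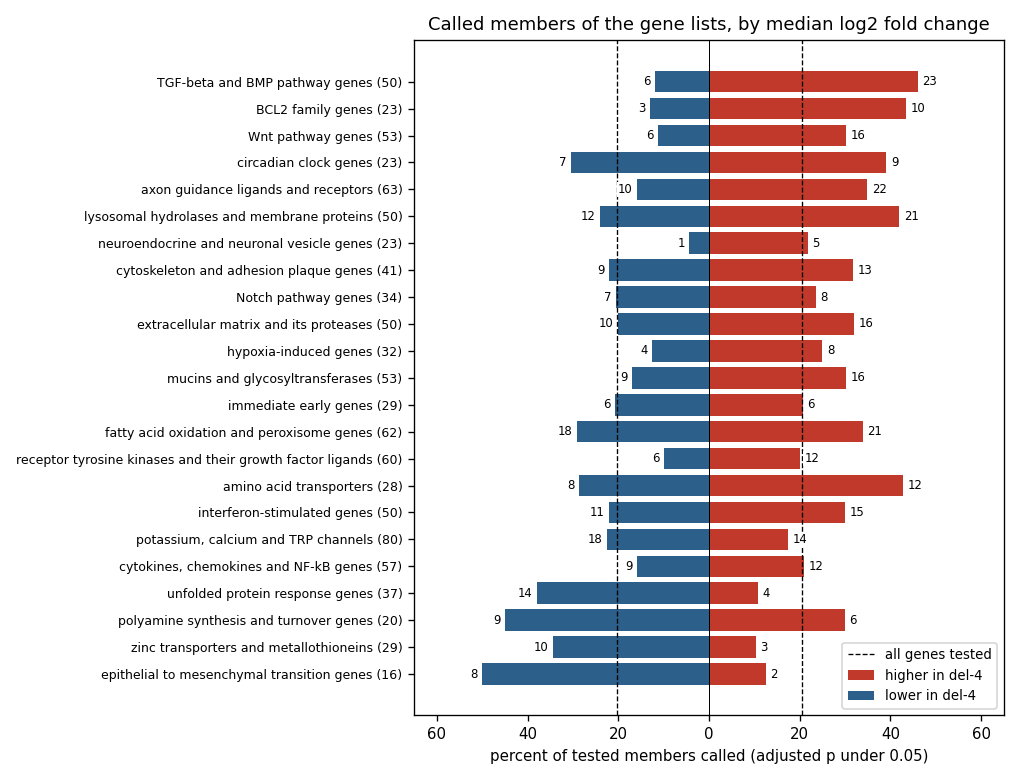
Percent of tested members called higher (red, to the right) and lower (blue, to the left) in del-4 at an adjusted p under 0.05 for each gene list shown, with the number of members tested in parentheses and the number called beside each bar. Dashed lines mark 20.5% and 20.2%, the shares of all genes tested, and lists are ordered by median log2 fold change, from 0.19 for the TGF-beta and BMP list to -0.17 for the epithelial to mesenchymal transition list.

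Lists with more falls than rises included zinc handling. Of 29 tested zinc transporters and metallothioneins, 3 were higher and 10 lower (10.3% and 34.5%), with a median of -0.13. Metallothioneins bind zinc and copper and are induced by them. *MT2A* had 6955, 5938 and 6016 in del-4 and 13640, 16284 and 15802 in WT (log2FC = -1.27, SE 0.062, adjusted p = 2.1e-11, limma) and *MT1X* had 2542, 2339 and 2246 in del-4 and 5017, 5822 and 6045 in WT (log2FC = -1.24, adjusted p = 3.9e-11, limma). *MT1F* and *MT1G* had log2FC values of -1.80 and -1.67. These genes are close copies that lie together on chromosome 16, where the median log2FC of 790 tested genes was -0.34 and 551 were lower, and the part of this shift in their falls was not tested. The zinc and manganese importer *SLC39A8* went the other way, with 29659, 26692 and 29312 in del-4 and 13819, 12933 and 13133 in WT (log2FC = 1.10, SE 0.042, adjusted p = 8.6e-13, limma).

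Unfolded protein response genes had 4 higher and 14 lower among 37 tested members (10.8% and 37.8%), with a median of -0.08 and no called member past the 2-fold limit. *CREB3L4*, an androgen-responsive transcription factor of the endoplasmic reticulum membrane, had 5851, 6124 and 5540 in del-4 and 10169, 11301 and 10608 in WT (log2FC = -0.87, adjusted p = 5.5e-11, limma). The cochaperone *SDF2L1* (log2FC = -0.59), the stress sensor *EIF2AK3* (-0.55) and *XBP1* (-0.39), whose spliced product drives the response, were lower as well. *EIF2AK3* lies on chromosome 2, where the median log2FC of all tested genes was -0.15, and the part of this shift was not tested. The 4 higher members were *CANX* (0.28), *ERO1B* (0.28), *ERO1A* (0.21) and *ATF4* (0.11). Rescaling to the same total gave 2 higher and 22 lower (5.41% and 59.5%), beside 13.6% and 28.3% of all genes.

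The list of epithelial to mesenchymal transition genes had 2 higher and 8 lower among 16 tested members, with a median of -0.17. Both mesenchymal and epithelial markers were among the lower ones. *VIM*, the mesenchymal intermediate filament, had 554, 548 and 613 in del-4 and 1164, 1037 and 978 in WT (log2FC = -0.89, adjusted p = 4.3e-07, limma), and the epithelial *CDH1* and *EPCAM* were lower as well (log2FC = -0.28 and -0.15). *CDH1* lies on chromosome 16 and *EPCAM* on chromosome 2, where the median log2FC over all tested genes was -0.34 and -0.15. The part of these shifts in their falls was not tested. *OVOL1* and *GRHL2*, transcription factors of the epithelial state, were the higher ones (log2FC = 0.62 and 0.28). Extracellular matrix genes had 16 higher and 10 lower among 50, with *THBS1*, a secreted adhesive glycoprotein, at 7323, 6618 and 7185 in del-4 and 3116, 3559 and 3528 in WT (log2FC = 1.05, adjusted p = 3.9e-11, limma) and *COL6A1* rising by 0.60, whereas *COL12A1* fell (log2FC = -3.50).

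Cytoskeleton and adhesion plaque genes had 13 higher and 9 lower among 41, with a median of 0.05. Over 2-fold, 0 were called higher and 2 lower, beside 1.89% and 2.94% of all genes tested. Among the lower members were *VIM* (log2FC = -0.89) and *MYL9* (-1.12), which lost its call in at least 1 other setting. *FLNA*, which crosslinks actin, had 44044, 45020 and 45722 in del-4 and 32923, 34380 and 32736 in WT (log2FC = 0.43, adjusted p = 2.5e-08, limma), and *KRT19*, a keratin, rose by 0.77.

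BCL2 family genes, which set the threshold of mitochondrial apoptosis, had 10 higher and 3 lower among 23 tested members, with a median of 0.11. The pro-apoptotic *HRK* had 239, 159 and 191 in del-4 and 34.8, 34.7 and 42.4 in WT (log2FC = 2.35, adjusted p = 4.4e-07, limma) and *BOK* had 3666, 3227 and 3399 in del-4 and 2081, 2364 and 2166 in WT (log2FC = 0.64, adjusted p = 1.1e-07, limma). *BAX* and *BAK1*, the pore formers, rose by 0.34 and 0.31, and so did the anti-apoptotic *MCL1* and *BCL2L1*, by 0.35 and 0.18. The pro-apoptotic *BCL2L11* fell by 0.33 on the log2 scale. Members with opposite functions thus rose together. After rescaling to the same total the count was 7 higher and 4 lower (30.4% and 17.4%), beside 13.6% and 28.3% of all genes.

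Lysosomal genes had 21 higher and 12 lower among 50 tested members with a median of 0.07, and 15 higher and 17 lower (30% and 34%) after rescaling to the same total, which gave 13.6% and 28.3% of all genes. *CTSD*, an aspartic protease, rose by 0.41 and *TPP1* by 0.46, and *CTSC*, a dipeptidyl peptidase, had 465, 388 and 404 in del-4 and 1055, 1006 and 1031 in WT (log2FC = -1.30, adjusted p = 6.1e-09, limma). Amino acid transporters had 12 higher and 8 lower among 28, and *SLC7A11*, the cystine importer, had 22833, 20262 and 21610 in del-4 and 14175, 13851 and 14615 in WT (log2FC = 0.60, adjusted p = 2.6e-09, limma) while *SLC7A5*, a leucine importer, fell by 0.63 on the log2 scale. *SLC7A5* lies on chromosome 16, where the median log2FC of all tested genes was -0.34. The part of this shift in its fall was not tested. Fatty acid oxidation and peroxisome genes were balanced, with 21 higher and 18 lower among 62. There *PEX11A*, which acts in peroxisome division, had 446, 386 and 470.1 in del-4 and 1187, 1237 and 1224 in WT (log2FC = -1.49, adjusted p = 6.8e-10, limma), and *ACSL4*, which activates arachidonic acid, had 504, 529.9 and 494 in del-4 and 187, 207 and 219 in WT (log2FC = 1.32, adjusted p = 2.2e-07, limma).

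Polyamine genes had 6 higher and 9 lower among 20 tested members, with a median of -0.09 and values between -0.57 and 0.28 among those called. The catabolic *PAOX* and *SAT1* (log2FC = -0.57 and -0.51) and *AMD1* (-0.26), which supplies the aminopropyl donor, were lower, while *SMS*, spermine synthase, rose by 0.21. Circadian clock genes had 9 higher and 7 lower among 23. The repressor *BHLHE41* had 402, 353 and 355 in del-4 and 58.9, 96.5 and 61.3 in WT (log2FC = 2.37, adjusted p = 4.3e-08, limma), its relative *BHLHE40* fell by 0.62 on the log2 scale, and the output factor *HLF* had 355, 402 and 358 in del-4 and 1022, 1069 and 1052 in WT (log2FC = -1.49, adjusted p = 7.9e-10, limma).

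The remaining lists were mixed. Interferon-stimulated genes had 15 higher and 11 lower among 50, with *IFITM3* at 6347, 6051 and 6425 in del-4 and 4157, 3983 and 3969 in WT (log2FC = 0.64, adjusted p = 1.3e-09, limma) in the direction opposite to *IFITM2*. Cytokine, chemokine and NF-kB genes had 12 higher and 9 lower among 57, and the scavenging chemokine receptor *ACKR3* had 4110, 3843 and 4211 in del-4 and 9001, 8855 and 8887 in WT (log2FC = -1.14, adjusted p = 5.4e-13, limma). Mucins and glycosyltransferases had 16 higher and 9 lower among 53, with the sialyltransferase *ST3GAL6* at 53.8, 65.7 and 78.3 in del-4 and 377, 382 and 412 in WT (log2FC = -2.56, adjusted p = 5.2e-09, limma). Immediate early genes had 6 in each direction among 29, and the antiproliferative *BTG1* had 17944, 18067 and 18019 in del-4 and 9911, 10182 and 9949 in WT (log2FC = 0.85, adjusted p = 1.3e-12, limma). Hypoxia-induced genes had 8 higher and 4 lower among 32, and *CA12*, a membrane carbonic anhydrase, fell by 0.89 on the log2 scale. Rescaling to the same total moved the median log2FC of all genes to -0.07, with 13.6% of all genes higher and 28.3% lower. After it, the higher and lower members numbered 10 and 11 for the cytoskeleton, 9 and 11 for receptor tyrosine kinases and 6 and 8 for Notch. They numbered 9 and 10 for amino acid transporters, 15 and 22 for fatty acid oxidation, 10 and 16 for mucins and glycosyltransferases and 11 and 12 for interferon-stimulated genes. Cytokine genes gave 11 and 14, hypoxia-induced genes 6 and 6, immediate early genes 6 and 7 and circadian clock genes 6 and 8, whereas axon guidance genes gave 21 and 11 and matrix genes 15 and 13.

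Luminal markers did not move as 1 group. *KLK2*, an androgen-induced protease, had 5122, 5749 and 5012 in del-4 and 8320, 9654 and 7993 in WT (log2FC = -0.71, adjusted p = 4.8e-08, limma), and *TMPRSS2* (-0.57), *FOLH1* (-0.34) and *STEAP2* (-0.32) were lower as well. *KLK3*, which encodes PSA, rose by 0.25. Stromal markers summed to 1705 to 2051 over the del-4 libraries and to 1468 to 1591 over those of WT. The 4 endothelial markers summed to 288 to 329 and to 590 to 618, respectively, nearly all of it from *VWF* (log2FC = -0.97), with *CDH5* at 0. Leukocyte markers summed to at most 23.9 in any library. The part of these levels in the results on matrix and cytokine genes was not tested.

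Position along the chromosome was examined last. On chromosome 16, 15 of 790 tested genes were higher and 551 lower, and on chromosome 2 the numbers were 97 and 436 of 1122. Chromosome 13 held 22 higher and 121 lower genes of 281, and chromosome 1 held 647 and 288 of 1761. The median log2FC was -0.34, -0.15, -0.17 and 0.11 in that order. The part of these shifts in the results on single genes and lists was not tested. Of the 327 genes over 2-fold higher that have a position, 78 (23.9%) had another non-overlapping gene over 2-fold higher within 500 kb, and 16.0% of all 17377 positioned genes had such a neighbour. For the 512 genes over 2-fold lower the share was 35.0%, and 26.2% of all genes had such a neighbour. Gene families that lie together, such as the *UGT2B* genes, are included in both shares. *GPC5*, the glypican next to *GPC6*, had 1112, 994 and 1067 in del-4 and 325, 388 and 397 in WT (log2FC = 1.52, adjusted p = 1.9e-09, limma). *UNC5C*, a netrin receptor gene 4.1 kb from *BMPR1B*, rose by 1.68, and *RIT2*, a small GTPase gene 152.2 kb from *SYT4*, had 278, 218 and 304 in del-4 and 96.6, 119.7 and 91.4 in WT (log2FC = 1.37, adjusted p = 1.5e-05, limma).

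Losses were shared by neighbours as well. *LACC1*, which overlaps the start of *CCDC122* on the opposite strand, had 3.84, 0 and 0 in del-4 and 237, 179 and 238 in WT (log2FC = -7.00, adjusted p = 1.9e-08, limma). Without knowledge of the strand used in counting, the reads of this pair cannot be fully separated. *FMOD* and *OPTC*, the proteoglycan genes beside *PRELP*, were listed at 0, 0 and 2.01 and at 0, 1.99 and 4.02 in del-4 and at 19.3, 19.3 and 15.1 and 23.2, 38.6 and 47.1 in WT. *H4C16*, a histone H4 gene 3.3 kb from *H2AJ*, was at 0 in all del-4 libraries and at 28.0, 31.9 and 39.6 in WT. *TM4SF18*, next to *TM4SF1*, had a log2FC of -2.06, and *F5*, a coagulation factor gene within 500 kb of *ATP1B1*, had -1.81. No neighbour within 500 kb was called over 2-fold in the same direction for *SMO*, *AQP3*, *C9orf64*, *CBLN2* or *SPRY1*.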

How the data were processed

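RNA was taken from 3 cultures of del-4 and 3 of WT. Per the paper's methods, the authors aligned strand-specific paired-end reads to GRCh38 with STAR 2.71a, counted reads of protein-coding genes with BEDTools 2.27.1 multicov on GENCODE version 38 and used DESeq2. The processing notes also name FastQC 0.11.8, Trim Galore 0.6.5 and SAMtools 1.8. The deposited signal values are read counts that the authors divided by 1 size factor per library. Every value is a whole multiple of 1 step to within 1e-06, so reads were recovered by multiplication. Of values of 1 to 20 reads, 84.1% were even, since both mates were counted. Of 19984 identifiers, 19923 matched GENCODE version 44.

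Genes whose mean over the 6 libraries was at least 1 were fitted with limma 3.58.1 (R 4.3.3, variance trend) on log2(normalized count + 1), with Benjamini-Hochberg adjustment, a threshold of 0.05 and no block. Fold changes are on that scale and understate low genes. Floors are 3 reads per library and cover counting error only. Del-4 was also fitted against del-56. Alternatives were pseudocounts of 0.5 and 5, other filters, rescaling to the same total, quantile normalization, all 9 libraries, the replicate block, edgeR 4.0.16 and DESeq2 1.42.0 on recovered reads and leaving out each library. On simulated data limma was tested with known changes before use. Other steps and the figures used Python 3.11.15, pandas 2.3.3 and matplotlib 3.10.9.

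Genes were named by rule: well-expressed genes without overlap (12 largest changes each way), the 200 with most reads (5 each way), genes at most at 3 reads in 1 clone (6 each way), genes averaging at least 100 over 9 libraries that differ from WT and del-56 (8 each way), list members and markers. Other members, neighbours and the Hedgehog, aquaporin and synaptic lists were chosen after their values were seen. All members, rules and lists were chosen with earlier results of these data known. Promoters were matched by symbol to RefSeq for 47 of 56 named genes. Some genes and 1 gene list are not reported here.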

Additional observations from a re-analysis of the deposited data

Results flagged for a closer look

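In 16 genes the difference of del-4 from WT was accompanied by a difference of del-4 from del-56, tested in limma on these clones directly with Benjamini-Hochberg adjustment. They are the 8 rises and the 8 falls ranked highest by the smaller of these differences, under a rule that required both, so the values are a description. The direct log2 difference, del-4 minus del-56, was 7.09 for *HK3*, 3.59 for *TRPV3*, 3.50 for *CBLN2* and 4.44 for *BRINP1*. For the near-identical *VCX* genes it was 3.37 (*VCX2*), 3.31 (*VCX3A*), 3.28 (*VCX*) and 3.19 (*VCX3B*). Among the losses it was -7.11 for *SMO*, -7.77 for *C9orf64*, -6.19 for *KCNJ3* and -4.28 for *PSTPIP2*. It was -3.66 for *AQP3*, -3.57 for *AS3MT*, -3.00 for *CCDC74B* and -3.25 for *XKR6*. Against WT, del-56 itself moved in the direction opposite to del-4 in *HK3* (log2FC = -2.98), *BRINP1* (-1.07), *C9orf64* (0.71) and *XKR6* (0.36).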

How the results depend on the processing

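Of 2512 recomputed values of 157 named genes, 2488 kept their direction and call, 24 lost the call and 0 reversed. The losses fell on *MYL9*, *SYP*, *ACOX2*, *ST6GALNAC2* and *KRT8*. Rescaling to the same total moved the median log2FC of all genes to -0.07 and gave 2364 higher genes in place of 3565, and 36 lower genes among the 200 with most reads in place of 16. Quantile normalization gave 73 higher and 63 lower there. These counts among 200 genes were added after the data were seen. Of 336 recomputed list medians, 75 moved by more than their spread.

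With 1 library left out, higher genes numbered 2741 to 3275 and lower genes 2768 to 3153, and lower genes among the 200 numbered 7 to 15, with 10 without del-4 replicate 2, 7 without del-4 replicate 3, 9 without WT replicate 2 and 10 without WT replicate 3. In the direct fit of del-4 against del-56, genes over 2-fold lower numbered 270 and between 166, without del-56 replicate 2, and 230 in those fits. With a log2 scale, the values of genes near 0 depended on the pseudocount, and *RND3* lay between 5.51 and 8.21 with pseudocounts of 5 and 0.5. On recovered reads, edgeR called 3529 higher and 3520 lower genes and DESeq2 3540 and 3479.

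Same-numbered libraries of the clones did not deviate together (correlations 0.027, -0.0026 and 0.015), and 2 of 3 del-4 libraries correlated best with the WT library of their number. A replicate block gave 3543 higher and 3495 lower genes. Low depth limits genes with a mean under 10, where the median standard error was 0.99.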
